A study of Mus musculus with 6 samples.

Results

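The genes described here are 36 genes of the extracellular matrix and its remodelling, namely collagens, basement membrane linkers, adhesive glycoproteins, proteoglycans, crosslinking enzymes, metalloproteinases and their inhibitors. They were taken by exact symbol from a table of 43283 genes whose transcripts were measured in muscle stem cells of the mouse after culture, and all 36 were found. The cells were sorted from hindlimb muscles of female C57BL/6 mice as positive for α7-integrin and CD34 and negative for CD45, Sca1, CD31 and CD11b. The labels give the age as 8 to 12 weeks in one place and as 2 to 4 months in another. The 3 Vehicle libraries came from cells kept for 24 h with DMSO, the solvent, and the 3 PGE2 libraries from cells kept for 24 h with prostaglandin E2, a lipid mediator of injured tissue that signals through G-protein-coupled receptors. Both groups shared a medium with 20% fetal bovine serum, and RNA came from 5000 to 10000 cells. The labels give no PGE2 concentration, and they leave unsaid whether the replicates stem from different animals or cultures. The p-values therefore measure only how far these libraries differ, which may be partly technical.

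Muscle stem cells lie between the fibre membrane and a basement membrane built of laminin and collagen IV networks that nidogen and perlecan tie together. Interstitial collagens I, III and VI, fibronectin and proteoglycans fill the space outside it, and much of that material is made by fibro-adipogenic cells. Stem cells also make matrix of their own: collagen V from mouse satellite cells is known as a quiescence signal, and fibronectin, tenascin C and thrombospondin 1 are deposited during repair. Metalloproteinases cut this material, TIMP proteins restrain them, and lysyl oxidases crosslink collagen and elastin.

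Levels are in TPM, a relative abundance that corrects for transcript length and so allows levels to be compared between genes. The read depth cannot be had from TPM and is unknown. A gene was tested where it reached 1 TPM or more in at least 3 libraries, which 23 of the 36 matrix genes and 12781 of all genes did. The remaining 13 matrix genes were too low to test. Tests used limma on log2(TPM + 1) with Benjamini-Hochberg adjustment over all 12781 genes at a threshold of 0.05, two-sided, and log2 changes are PGE2 minus Vehicle on that scale. The added 1 makes the fold of a gene near 1 TPM look smaller than it is.

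No matrix gene passed the test. Of the 23 tested, 0 had an adjusted p under 0.05 (0.0% of all tested genes did) and 0 had an unadjusted p under 0.05, where 464 of all tested genes, 3.63%, did (1.57% higher and 2.06% lower with PGE2). Fitted values were higher with PGE2 for 12 and lower for 11, and their median log2 change was 0.05, beside 43.9% higher and a median of -0.07 over all tested genes. The groups did not overlap for 2 of the 23, and for 8.01% of all tested genes (3.18% higher and 4.84% lower with PGE2). These were nidogen 1, Nid1, higher in each PGE2 library, and the collagen V chain Col5a2, lower in each by the narrowest margin. One library, PGE2 1, stood apart: it held the highest value of 11 of the 23 matrix genes (47.8%), where 30.1% of all tested genes were highest in that library. In bulk samples, fewer cells of a type and less RNA per cell cannot be told apart.

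Shown here are the start regions of 3 genes that the RefSeq table holds. These are the regions of Col4a1 and Col4a2, the head-to-head pair among the 36, and of Nid1, which had the smallest p. Each runs from 250 bases before to 50 after an annotated start, 5′ to 3′ on the gene's strand, in build GRCm38.p6. Capitals mark every match, on either strand, to any of 5 promoter motifs. They are the CCAAT box, the GC box with letters GGGCGG, the TATA box with letters TATAAA, the AP-1 site with letters TGANTCA, and TGACG, the core of the cAMP response element that CREB binds.
Col4a1, chr8:11312777-11313076, minus strand: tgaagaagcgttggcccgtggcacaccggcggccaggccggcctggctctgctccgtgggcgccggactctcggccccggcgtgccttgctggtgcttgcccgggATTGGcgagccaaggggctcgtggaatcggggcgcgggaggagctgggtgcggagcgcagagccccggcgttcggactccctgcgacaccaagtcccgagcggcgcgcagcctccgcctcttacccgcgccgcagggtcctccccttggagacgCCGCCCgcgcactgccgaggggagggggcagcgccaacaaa
Col4a2, chr8:11312555-11312854, plus strand: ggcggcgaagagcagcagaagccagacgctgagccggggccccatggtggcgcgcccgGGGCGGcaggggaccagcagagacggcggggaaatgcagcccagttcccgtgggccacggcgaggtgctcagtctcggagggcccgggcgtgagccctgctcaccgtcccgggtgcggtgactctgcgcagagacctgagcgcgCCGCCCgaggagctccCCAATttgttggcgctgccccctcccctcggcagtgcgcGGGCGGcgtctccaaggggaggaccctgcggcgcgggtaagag
Nid1, chr13:13437352-13437651, plus strand: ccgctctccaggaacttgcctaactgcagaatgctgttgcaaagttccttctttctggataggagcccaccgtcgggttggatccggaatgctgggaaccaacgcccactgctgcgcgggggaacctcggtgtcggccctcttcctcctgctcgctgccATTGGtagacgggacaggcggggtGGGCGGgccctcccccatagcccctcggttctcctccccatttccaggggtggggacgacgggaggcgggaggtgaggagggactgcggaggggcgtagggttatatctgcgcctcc
The Col4a1 and Col4a2 windows share 78 bases, and the annotated transcripts overlap by 22 bases at their starts. Reads there cannot be told apart unless the counting used strand, which is not given in the sources used here. Col4a1 held 1 CCAAT box and 1 GC box, Col4a2 1 and 3, and Nid1 1 and 1. The GC box of Col4a1 lies in the shared bases and is also 1 of the 3 counted for Col4a2. In Nid1 the CCAAT box began 91 and the GC box 67 bases before the start. None of the 3 windows held a TATA box, an AP-1 site or TGACG. The table held 25 of the 36 matrix genes, 18 of them tested. A GC box was in 14 of those 18 windows and in 35.9% of 27025 first-listed promoters, and a CCAAT box in 10 of 18 and in 37.9%. An E-box (CANNTG), the sequence that myogenic bHLH factors bind, was in 9 of 18 and in 72.1%. The median GC content was 62.2% in the 18 and 52.7% in all. TGACG was found in 1 of the 18, Timp1, and in 21.0% of all promoters, and the full element TGACGTCA in 0 of 18 and in 1.88%. The 18 are all tested genes and the 27025 were not limited to such genes, so these shares are not matched for expression level. These matches describe letters in short windows, and nothing about binding follows from them.

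The adhesive and matricellular genes made up most of the summed TPM of the 36 genes. Sparc, a collagen-binding glycoprotein (mm10 chromosome 11, 55394500 to 55423183, minus strand), had the highest mean of the 36, at 269 ± 52.4 TPM with Vehicle and 462 ± 288 TPM with PGE2 (mean ± SD, n = 3 each). It held between 37.0% and 51.3% of the summed TPM of the 36 genes in every library. By library, Sparc stood at 235, 329.6 and 244 TPM with Vehicle and at 793, 276 and 315 TPM with PGE2, in replicate order here and for each gene that follows. PGE2 1 lay far above the rest, and the other PGE2 libraries lay within the Vehicle range. Its log2 change was 0.62 (95% confidence interval -0.29 to 1.54), and 0.15 without PGE2 1.

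Tnc, which encodes tenascin C, a glycoprotein of matrix under repair, had 72.7, 74.1 and 42.2 TPM with Vehicle and 202, 50.9 and 48.2 TPM with PGE2. For Thbs1, thrombospondin 1, a matricellular protein that can activate latent TGF beta, the values were 98.0, 81.7 and 60.4 TPM with Vehicle and 134, 42.1 and 48.4 TPM with PGE2. Fibronectin, Fn1, the main adhesive ligand of integrin α5β1, had 27.2, 35.5 and 11.8 TPM with Vehicle and 100.4, 27.0 and 15.9 TPM with PGE2. In all 3 genes PGE2 1 was the highest of the 6 libraries, and for Tnc and Fn1 the other PGE2 libraries fell within the Vehicle range. For Thbs1 the other PGE2 libraries were below every Vehicle library. The log2 change was 0.37 for Tnc (95% confidence interval -0.80 to 1.55), -0.27 for Thbs1 (-1.26 to 0.72) and 0.62 for Fn1 (-0.82 to 2.06). Without PGE2 1 it was -0.30 for Tnc, -0.79 for Thbs1 and -0.12 for Fn1, and Thbs1 then had an unadjusted limma p of 0.0347. Without that library 979 of all tested genes, 7.66%, had an unadjusted p under 0.05. The ratio of Fn1 to Tnc ran from 0.280 to 0.479 in Vehicle and from 0.329 to 0.530 in PGE2. In PGE2 1 it was 0.496, above every Vehicle library and below PGE2 2.

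Postn, which encodes periostin, a matricellular protein of fibroblasts, differed in the opposite way in PGE2 1. It was steady at 1.83, 1.84 and 1.78 TPM with Vehicle and had 0.23, 5.11 and 4.99 TPM with PGE2, so that the PGE2 libraries fell on both sides of the Vehicle ones. Its log2 change of 0.34 (95% confidence interval -1.23 to 1.90) became 1.10 without PGE2 1 (unadjusted limma p of 0.0589). Thbs2, thrombospondin 2, had 1.17, 1.56 and 0.88 TPM with Vehicle and 0.40, 2.42 and 0.28 TPM with PGE2, with overlapping groups and a log2 change of -0.26. Tgfbi, a TGF beta-induced adhesion protein, stayed at or below 0.23 TPM, was listed at 0 in every PGE2 library and was untested.

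**Figure D1:**
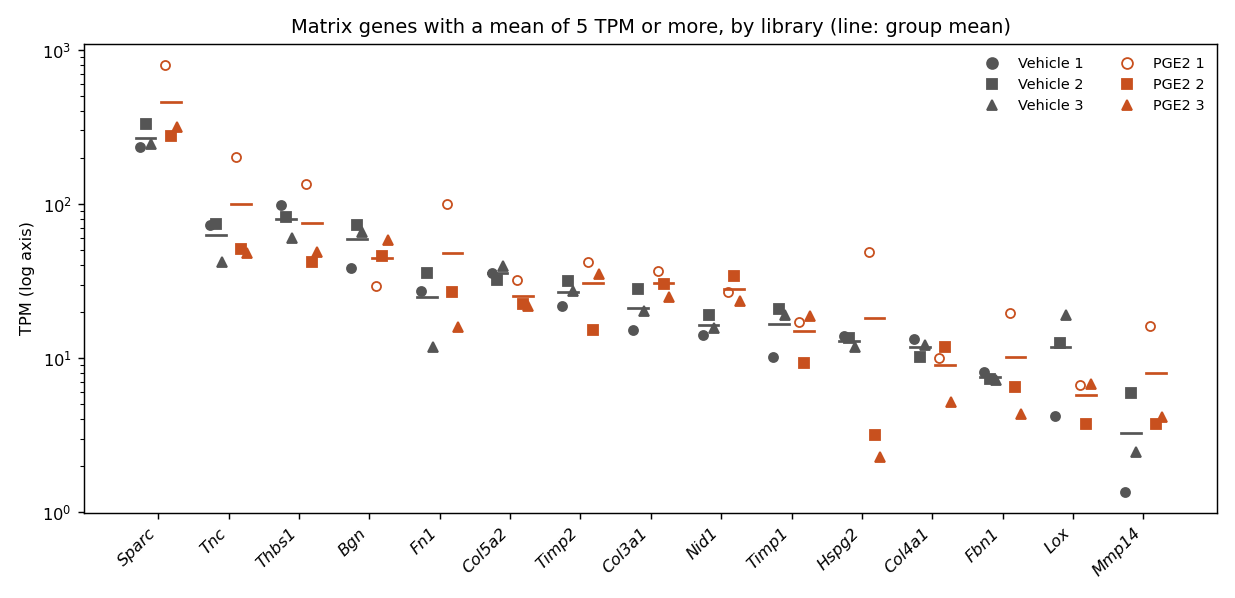
TPM (log axis) of the 15 matrix genes that averaged at least 5 TPM, in order of mean, with grey symbols for Vehicle, orange for PGE2, an open circle for PGE2 1 and a line at each group mean. Sparc lies above the others, Nid1 is higher in every PGE2 library, and the open circle is the top point for 9 of the 15 genes. Among all tested genes of that level, 32.8% were highest in PGE2 1.

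Basement membrane linkers held the gene with the smallest p. Nid1 (mm10 chromosome 13, 13437551 to 13512269, plus strand) encodes nidogen 1, which joins laminin to collagen IV. It had 14.1, 19.1 and 15.7 TPM with Vehicle and 26.6, 34.2 and 23.5 TPM with PGE2. Every PGE2 library was above every Vehicle library, and PGE2 1 was not the highest of them. The group means were 16.3 ± 2.56 TPM with Vehicle and 28.1 ± 5.48 TPM with PGE2 (mean ± SD, n = 3 each). On the log2(TPM + 1) scale PGE2 exceeded Vehicle by 0.74 (95% confidence interval -0.05 to 1.54), or 1.67-fold, with an unadjusted limma p of 0.0639 and a Benjamini-Hochberg adjusted p of 1.00. It ran from 0.60 to 0.86 with each library left out in turn and was 0.77 without PGE2 1. The related linker Nid2 was untested, with 0.63, 0.80 and 0.86 TPM with Vehicle, 0.98 TPM in PGE2 1 and a listing at 0 in the other PGE2 libraries.

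Hspg2 encodes perlecan, the heparan sulfate proteoglycan of basement membranes (mm10 chromosome 4, 137468769 to 137570630, plus strand). It was even in Vehicle, at 13.8, 13.4 and 11.7 TPM, and spread widely in PGE2, at 49.0, 3.18 and 2.29 TPM. PGE2 1 was above and both other PGE2 libraries were below every Vehicle library. The log2 change over all 6 libraries was -0.66 (95% confidence interval -2.64 to 1.32). Without PGE2 1 it was -1.91 with an unadjusted limma p of 0.00251, and it did not pass after adjustment. Agrn encodes agrin, the proteoglycan that organises the neuromuscular junction, and had 5.23, 4.85 and 2.25 TPM with Vehicle and 9.37, 2.92 and 2.20 TPM with PGE2. Its groups overlapped and its log2 change of 0.05 turned to -0.47 without PGE2 1. The Nid1 to Hspg2 ratio was 1.02 to 1.43 in Vehicle, 0.544 in PGE2 1, and 10.7 and 10.3 in PGE2 2 and 3.

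Among the genes grouped here as network collagens, with Col18a1 and Col15a1 included, the collagen IV chains Col4a1 and Col4a2 had the highest means. Col8a1, a network collagen outside this group that is listed for comparison below, was above both chains in every library (15.9 to 23.8 TPM). Col4a1 had 13.2, 10.2 and 12.1 TPM with Vehicle and 10.0, 11.7 and 5.20 TPM with PGE2, and Col4a2 had 4.37, 5.95 and 6.22 TPM with Vehicle and 5.86, 2.22 and 2.67 TPM with PGE2. The groups overlapped for both chains, whose proteins assemble into 1 trimer and whose shared start region is printed above. The log2 change was -0.42 for Col4a1 (95% confidence interval -1.44 to 0.60) and -0.58 for Col4a2 (-1.78 to 0.62). The level of Col4a1 was 1.71 to 3.03 times that of Col4a2 in 5 of the 6 libraries and 5.28 times in PGE2 2. Col18a1, whose protein yields the fragment endostatin, had 1.37, 1.41 and 0.93 TPM with Vehicle and 4.47, 0.95 and 2.64 TPM with PGE2, with overlapping groups and a log2 change of 0.61 (95% confidence interval -0.69 to 1.90). The collagen VI chains Col6a1, Col6a2 and Col6a3 stayed at or below 0.74 TPM in every library, and Col15a1 at or below 1.84 TPM, and all 4 were untested.

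Among fibrillar collagens, Col5a2 and Col3a1 were well detected, and the collagen I chains were low and uneven across libraries. Col5a2, a chain of the fibril-limiting collagen V, had 35.8, 32.1 and 39.4 TPM with Vehicle and 32.1, 22.4 and 21.7 TPM with PGE2. The groups met at Vehicle 2 (32.11 TPM) and PGE2 1 (32.10 TPM), so their separation there was 1 unit of the last printed digit. The log2 change was -0.49 (95% confidence interval -1.24 to 0.25; unadjusted limma p of 0.169, Benjamini-Hochberg adjusted p of 1.00) and -0.67 without PGE2 1. Col5a1, the partner chain of Col5a2 in collagen V, was at 0.13 to 1.96 TPM and untested, and Col5a3 was at or below 0.20 TPM.

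Col3a1, the chain of collagen III, had 15.3, 28.1 and 20.2 TPM with DMSO, while the PGE2 libraries had 36.5, 30.4 and 24.9 TPM. Vehicle 2 exceeded PGE2 3, and all other PGE2 values were above all Vehicle values. Its log2 change was 0.53 (95% confidence interval -0.29 to 1.36). Col3a1 and Col5a2 are neighbours that lie tail to tail on chromosome 1 with 24614 bases between them. The Col3a1 to Col5a2 ratio was 0.428, 0.875 and 0.511 with Vehicle and 1.14, 1.36 and 1.15 with PGE2. It did not overlap between the groups, a description of a ratio chosen with these values known. Col1a1 had at most 0.44 TPM in 5 libraries and 14.4 TPM in PGE2 3, and was untested. Its partner chain Col1a2 had 1.74, 0.84 and 1.63 TPM with Vehicle and 0.22, 6.12 and 0 TPM with PGE2, so the library high for one chain of collagen I was not the library high for the other.

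Of the small proteoglycans, Bgn was well detected and the fibroblast genes Dcn and Lum were near 0. Bgn, which encodes biglycan, had 38.2, 73.0 and 66.0 TPM with Vehicle and 29.4, 46.2 and 58.0 TPM with PGE2. It overlapped between the groups (log2 change -0.40, 95% confidence interval -1.25 to 0.45), and PGE2 1 was its lowest library, opposite to Sparc. The Sparc to Bgn ratio was 3.69 to 6.14 in Vehicle, 27.0 in PGE2 1, and 5.98 and 5.43 in PGE2 2 and 3. Decorin, Dcn, stayed at or below 1.37 TPM and lumican, Lum, at or below 0.21 TPM, both untested. Fbn1, which encodes the microfibril protein fibrillin 1, had 8.15, 7.31 and 7.16 TPM with Vehicle and 19.6, 6.51 and 4.32 TPM with PGE2. As with perlecan, PGE2 1 was above and the other PGE2 libraries were below every Vehicle library (log2 change 0.14, 95% confidence interval -1.13 to 1.41, and -0.43 without PGE2 1).

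Lox, the lysyl oxidase that starts collagen crosslinks, had 4.19, 12.4 and 19.0 TPM with Vehicle and 6.69, 3.76 and 6.74 TPM with PGE2. Vehicle 1 lay within the PGE2 range and the other Vehicle libraries above it, and the log2 change was -0.77 (95% confidence interval -2.07 to 0.54). Without Vehicle 1 it was -1.32, with an unadjusted limma p of 0.0489, where 3.02% of all tested genes had one under 0.05. Loxl2, a related enzyme, was untested at 0.25, 0.35 and 0 TPM with Vehicle and 0.70, 0.90 and 0.56 TPM with PGE2, higher in each PGE2 library and below 1 TPM throughout.

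Among the remodelling genes, Timp2 and Timp1 had higher mean levels than the 3 metalloproteinases, and Timp3 was below Mmp14 in every PGE2 library. Mmp14, the membrane-bound protease that activates pro-MMP2, had 1.36, 5.94 and 2.45 TPM with Vehicle and 16.1, 3.74 and 4.13 TPM with PGE2. The groups overlapped, and its log2 change, the highest fitted one among the 23, was 0.96 (95% confidence interval -0.55 to 2.47) and 0.36 without PGE2 1. Of the gelatinase genes, Mmp2 had 1.01, 2.48 and 0.87 TPM with Vehicle and 2.80, 0 and 3.15 TPM with PGE2, with overlapping groups and a log2 change of 0.09. Mmp9 reached at most 3.92 TPM and was untested. Timp2, whose protein takes part in that activation and also inhibits it, had 21.8, 31.6 and 27.2 TPM with Vehicle and 42.2, 15.2 and 35.0 TPM with PGE2. Timp1, a secreted inhibitor, had 10.2, 20.7 and 19.0 TPM with Vehicle and 17.1, 9.33 and 18.8 TPM with PGE2, and Timp3, the matrix-bound inhibitor, 4.72, 5.49 and 1.67 TPM with Vehicle and 2.89, 2.79 and 1.06 TPM with PGE2. All 3 overlapped between the groups, with log2 changes of 0.09 for Timp2 (95% confidence interval -0.86 to 1.04), -0.13 for Timp1 (-1.13 to 0.88) and -0.57 for Timp3 (-1.90 to 0.76). The Timp2 to Mmp14 ratio ran from 5.32 to 16.0 in Vehicle and from 2.63 to 8.47 in PGE2.

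**Figure D2:**
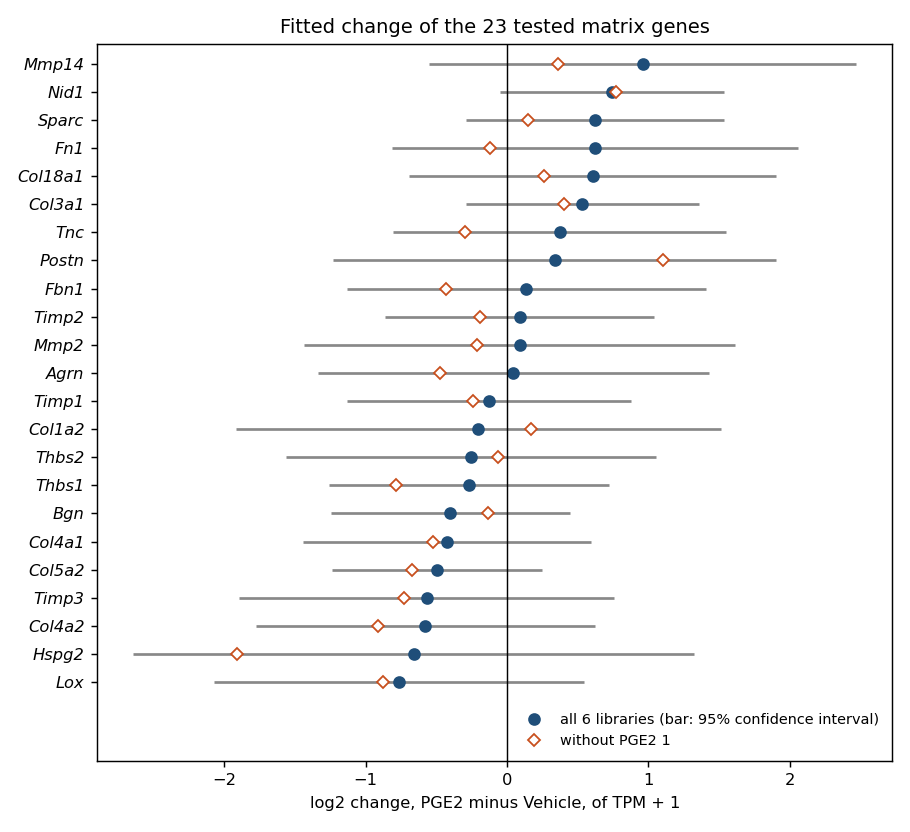
Fitted log2 change (PGE2 minus Vehicle, of TPM + 1) of the 23 tested matrix genes, with dots and 95% confidence intervals from limma on all 6 libraries and open diamonds for the fit without PGE2 1. Every interval from all 6 libraries crosses 0, and the diamonds of Fn1, Tnc, Fbn1, Timp2, Mmp2, Agrn and Col1a2 lie on the other side of 0 from their dots.

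In order of mean level, Sparc was followed by Tnc, Thbs1, Bgn, Fn1, Col5a2, Timp2, Col3a1 and Nid1. The lowest library of Sparc (235 TPM) was above the highest of Tnc (202 TPM), and each further pair of neighbours in that order overlapped in range. The mean of Sparc over all 6 libraries was above that of 97.6% of tested genes, and Nid1 stood above 68.6%. At the other end, 8 of the 36 genes were below 1 TPM in every library and 13 were listed at 0 in at least 1 library.

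The summed TPM of the 36 genes was 634, 803 and 623 with Vehicle and 1547, 610.1 and 665 with PGE2. PGE2 1 was the highest, PGE2 3 lay within the Vehicle range and PGE2 2 just under it. The adhesive and matricellular genes gave 361 to 524 TPM of it in Vehicle, 1231 TPM in PGE2 1, and 404 and 433 TPM in PGE2 2 and 3. The fibrillar collagens together had 54.4 to 62.3 TPM in Vehicle and 60.2 to 70.9 TPM in PGE2. Of this, 14.4 TPM in PGE2 3 was Col1a1, which had at most 0.44 TPM in every other library. In PGE2 2, 6.12 TPM was Col1a2. The SD of log2(TPM + 1) was larger in PGE2 than in Vehicle for 18 of the 23 genes (78.3%, beside 69.5% of all tested genes). Its median over the 23 was 0.78 in PGE2 and 0.32 in Vehicle, against 0.66 and 0.43 over all tested genes.

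**Figure D3:**
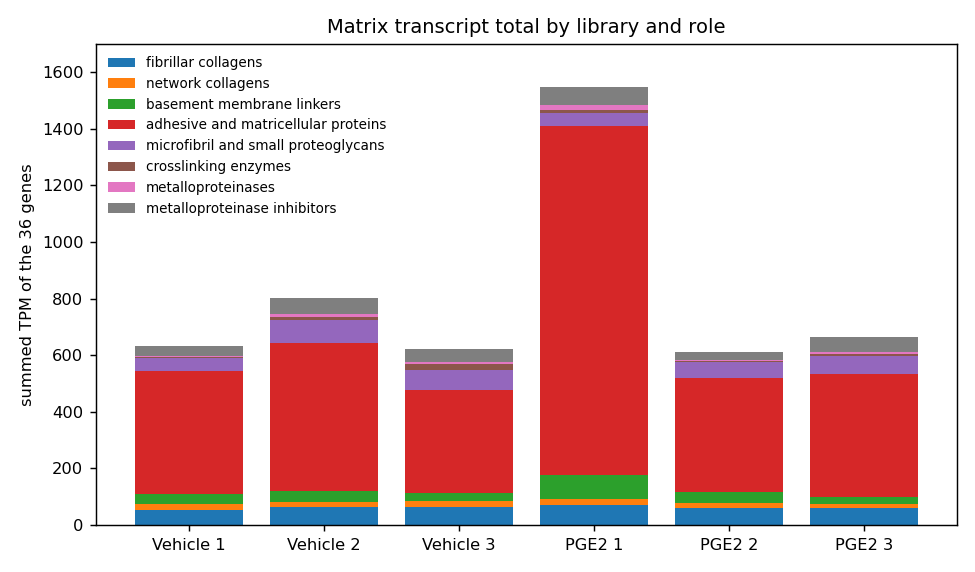
Summed TPM of the 36 matrix genes in each library, stacked by role. PGE2 1 reaches 1547 TPM, of which 1231 TPM are adhesive and matricellular genes, and the other 5 libraries lie between 610.1 and 803 TPM.

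Without PGE2 1, 7 of the 23 genes had a higher and 16 a lower fitted value, where 37.8% of all tested genes were higher. Their median was then -0.21, against -0.17 over all tested genes. Of the 23, 2 then had an unadjusted limma p under 0.05, Hspg2 and Thbs1, and 0 passed after adjustment.

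Some other measures also set PGE2 1 apart, and their part in these values was not tested. That library had the fewest genes above 0 (15400, against 16446 to 19677 in the others), but its mitochondrial share of 23.0% was within the range of the others. Its departure from the median of the other 5 libraries was larger for genes with longer transcripts, taken over genes that averaged at least 5 TPM. The median departure on the log2(TPM + 1) scale was 0.05 for genes whose longest coding transcript was up to 1000 bases, and 0.32 for those over 6000. The 7 matrix genes over 6000 bases had a median of 1.34, with 1.97 for Tnc, 1.97 for Hspg2, 1.86 for Fn1 and 1.34 for Fbn1. Col4a1, of similar length, had -0.21, and Col5a2 had 32.1 TPM there, within the range of the other libraries. Sparc, with a transcript of 2300 bases, had 1.52, and Mmp14, with 3238 bases, had 1.85. Nid1, with 6091 bases, had 0.46. The median was 1.07 for the 4 matrix genes of 2000 to 4000 bases and 0.53 for the 3 of 4000 to 6000 bases. Timp1, the 1 matrix gene up to 1000 bases, had -0.13.

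**Figure D4:**
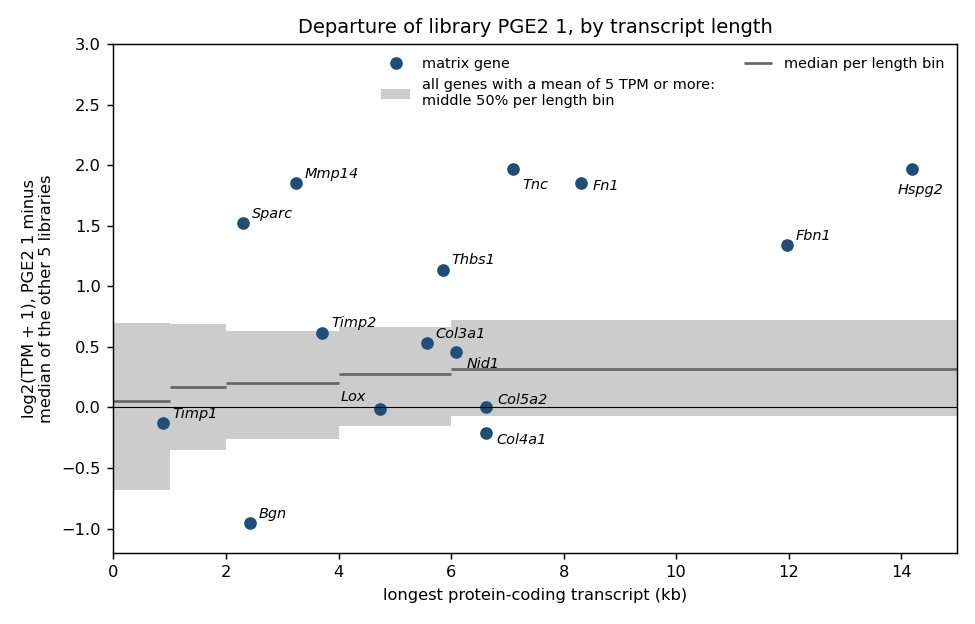
Departure of library PGE2 1 from the median of the other 5 libraries in log2(TPM + 1), against the longest protein-coding transcript (kb), for the 15 matrix genes that averaged at least 5 TPM. Grey bands give the middle 50% of all genes of that level per length bin, the last bin holding every gene over 6000 bases. Tnc, Fn1, Hspg2, Mmp14, Sparc, Fbn1 and Thbs1 lie above the band, and Bgn and Col4a1 below it.

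Markers of cells that make matrix in muscle were low. Of 12 fibro-adipogenic and fibroblast markers, which include Dcn and Lum, 4 were tested and 3 (Dpp4, Pi16 and Clec3b) were listed at 0 in all 6 libraries. Their summed TPM was 11.4 to 23.9 in Vehicle and 7.67 to 25.8 in PGE2, with 8.79 in PGE2 1, and Pdgfra, a defining receptor, stayed at or below 1.45 TPM. Ly6a, which encodes the Sca1 protein that the sort selected against, had 2.22, 3.38 and 7.92 TPM with Vehicle and 0, 13.55 and 0 TPM with PGE2. Of 6 tenocyte markers 2 were tested, with sums of 6.91 to 14.7 TPM in Vehicle and 3.82 to 18.5 TPM in PGE2, the last in PGE2 1. That sum was mostly Scx, a tendon transcription factor, with 15.3 TPM in PGE2 1 and 2.07 to 9.69 TPM in the others. Its part in the Tnc and Fn1 values of that library was not tested. The 8 endothelial markers, 3 of them tested, summed to 4.44 to 7.42 TPM in Vehicle and 7.43 to 20.1 TPM in PGE2. The groups met at Vehicle 3 (7.42 TPM) and PGE2 1 (7.43 TPM), so their separation was 1 unit of the last printed digit. Of the 8, Emcn was untested and had 15.3 TPM in PGE2 3 and at most 0.87 TPM elsewhere. Eng, which was tested, had 1.57, 1.10 and 0.96 TPM with Vehicle and 2.55, 6.44 and 2.54 TPM with PGE2 (unadjusted limma p of 0.092, Benjamini-Hochberg adjusted p of 1.00), with no overlap. Of the 3 tested endothelial markers, Eng was the 1 with a higher fitted value, and 2 were lower (median log2 change -0.29). Cldn5 was at 0 in all libraries, and the part of endothelial transcripts in the matrix values was not tested. The 8 pericyte and smooth muscle markers, 2 tested, summed to 79.0 to 123 TPM and 46.8 to 101.02 TPM, mostly Des, which muscle cells also express, and Pdgfrb was at 0 throughout. The 9 leukocyte markers, 3 tested, summed to 3.36 to 11.9 TPM in Vehicle and 8.25 to 13.9 TPM in PGE2. The 5 glial markers, 1 tested, summed to 3.11 to 5.67 TPM and 2.14 to 9.13 TPM. The 11 muscle stem cell markers, 10 tested, summed to 764 to 954 TPM in Vehicle and 660.5 to 937 TPM in PGE2. Of the 10, 3 had a higher and 7 a lower fitted value with PGE2 (median log2 change -0.11). PGE2 1 was the highest library for 6 of the 10. Sdc4, which the proteoglycan list also holds, gave 202 to 340 TPM of the sum in Vehicle and 184 to 363 TPM in PGE2. Pax7, the defining factor, was at 23.9 TPM or more in every library.

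Another 164 matrix genes were listed for comparison in 7 lists that share some genes, and 86 of them were tested. For 25 of the 86 (29.1%) PGE2 1 was the highest library, beside 30.1% of all tested genes. Fitted values were higher with PGE2 for 38 of the 86 and lower for 48, and their median log2 change was -0.10. None passed limma's test after adjustment, and 1 had an unadjusted p under 0.05 (6 without PGE2 1), beside 3.63% of all tested genes (7.66% without PGE2 1). That gene was Spp1, which encodes osteopontin, a secreted integrin-binding phosphoprotein (mm10 chromosome 5, 104435118 to 104441050, plus strand). It had 749, 969.9 and 634 TPM with Vehicle and 2691, 1528 and 1629 TPM with PGE2. Every PGE2 library was above every Vehicle library, with group means of 785 ± 170.5 TPM and 1949 ± 644 TPM (mean ± SD, n = 3 each). For Spp1 PGE2 exceeded Vehicle by 1.29 on the log2(TPM + 1) scale (95% confidence interval 0.50 to 2.08), or 2.44-fold, with an unadjusted limma p of 0.00462 and a Benjamini-Hochberg adjusted p of 1.00. Without PGE2 1 it was 1.03, with an unadjusted p of 0.00816. Its level exceeded that of Sparc in every library.

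The other lists held no gene with an unadjusted p under 0.05. Of 19 other collagens 6 were tested, 3 higher and 3 lower, led by the network collagen Col8a1 with 20.0, 23.0 and 22.1 TPM with Vehicle and 17.0, 15.9 and 23.8 TPM with PGE2, and by Col27a1 with at most 5.74 TPM. Collagen folding and processing had 18 of 23 genes tested, 7 higher and 11 lower (median -0.10). In that list P4hb, the prolyl hydroxylase subunit and disulfide isomerase, had 140.3, 154 and 89.6 TPM with Vehicle and 103, 212 and 123 TPM with PGE2, and Plod2, a collagen lysyl hydroxylase, 76.3 to 105 TPM and 79.1 to 144 TPM. The elastic and glycoprotein list, which holds Spp1, had 14 of 38 tested, 5 higher and 9 lower (median -0.22), and its second most abundant gene was Ltbp1, a TGF beta-binding protein, with 157, 195 and 196 TPM with Vehicle and 81.9, 111 and 181 TPM with PGE2.

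Proteoglycans and syndecans had 11 of 22 tested, 5 higher and 6 lower (median -0.11), led by the hyaluronan receptor Cd44 at 401 to 602 TPM in Vehicle and 420.3 to 482 TPM in PGE2, and by syndecan 4, Sdc4, at 202 to 340.3 TPM and 184 to 363 TPM. Proteases and their inhibitors had 19 of 40 tested, 9 higher and 10 lower (median -0.04). The lysosomal protease Ctsl had 143 to 214 TPM in Vehicle and 126 to 318 TPM in PGE2. The TGF beta list had all 20 tested, 9 higher and 11 lower (median -0.07), with the SMAD corepressor Skil at 144 to 251 TPM in Vehicle and 116 to 218 TPM in PGE2, above Ltbp1, which that list also holds. Of 5 other crosslinking enzymes 1 was tested, Loxl3, at 1.52 to 5.43 TPM in Vehicle and 0.55 to 3.67 TPM in PGE2, and Loxl1 reached at most 1.01 TPM.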

How the data were processed

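Per the labels' protocols, a Qiagen micro kit gave the RNA, NuGEN Ovation amplified it and Illumina libraries followed. STAR, RSEM and mm10 appear in the submitters' processing notes; their versions and settings, the annotation and the use of strand were not given in the sources used here. In 1 table, the authors deposited TPM with 1 column per library. The unit was read from the values, which sum to between 992357 and 995645 per column. TPM keeps no depth, so precision is known from the spread between libraries alone. No 2 libraries were identical.

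Positions came from GENCODE M21 (42782 of 43283 identifiers matched) and promoters from RefSeq, GRCm38.p6. Tests used limma 3.58.1 in R 4.3.3 (mean trend, not robust), checked on simulated data, and tables Python 3.11.15. The genes and lists were chosen with earlier results of these data known. All 36 genes are accounted for, the 23 tested ones with a value in every library. Of each other list, the text names the 2 genes with the highest mean and those with an unadjusted p under 0.05, except 1 gene that is not reported here. Alternatives covered pseudocount, filter, scaling, variance prior, library weights, a replicate block and each library left out.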

Additional observations from a re-analysis of the deposited data

How the results depend on the processing

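Over 17 alternative settings, 0 of the 36 matrix genes and 0 of the other matrix genes passed limma's test after adjustment. Across all tested genes, 0 passed in the fit as reported, 1 with a robust variance prior, 4 without a mean trend, and 0 to 2 with 1 library left out. The number of matrix genes with an unadjusted p under 0.05 was 0, 1 after median-ratio scaling (Nid1, beside 3.79% of all tested genes), and 0 to 2 with 1 library left out (Hspg2 and Thbs1 without PGE2 1, beside 7.66%, and Lox without Vehicle 1, beside 3.02%). Matrix genes with no overlap between the groups numbered 2 as reported, 2 to 3 in the settings that kept all libraries (5.66% to 8.59% of all genes tested there), and 3 to 8 of 23 with 1 library left out, where fewer values can overlap. Without Vehicle 1, 2 or 3 they were 6, 6 and 3 (15.6%, 13.8% and 14.7% of all tested genes), and without PGE2 1, 2 or 3 they were 7, 8 and 3 (25.9%, 16.5% and 20.8%). The log2 ratio of the summed TPM was 0.45 and ran from -0.11 without PGE2 1 to 0.69 without PGE2 2. The median log2 change of the tested genes stayed within 1 SD of the spread between libraries (0.39) in all settings.

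Of the 23 tested genes, 11 kept their sign in all 17 settings (Col3a1, Col5a2, Col4a1, Col4a2, Col18a1, Nid1, Sparc, Bgn, Lox, Mmp14 and Timp3). With library weights the sign turned for Agrn (-0.29), Tnc (-0.0099), Fbn1 (-0.0815), Mmp2 (-0.16) and Timp2 (-0.0485), and for Mmp2 also with a pseudocount of 0.1 (-0.52) or 0.5 (-0.0112). These weights were lowest for PGE2 1 (0.425). With 1 library left out, the log2 change ran from -1.10 to 0.32 for Col1a2, -1.91 to 0.0515 for Hspg2, -0.47 to 0.38 for Agrn, -0.12 to 1.17 for Fn1, -0.0533 to 1.10 for Postn, -0.30 to 0.73 for Tnc, -0.79 to 0.0397 for Thbs1, -0.71 to 0.0015 for Thbs2, -0.43 to 0.55 for Fbn1, -0.27 to 0.75 for Mmp2, -0.43 to 0.16 for Timp1 and -0.19 to 0.52 for Timp2. The cause was not tested.

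The replicate numbers are not stated to mark a shared animal or day, and same-numbered libraries did not deviate together (r of deviations from the group means across 12781 genes of -0.06, -0.04 and 0.07). With the replicate block, 0 genes of the whole table passed and 482 had an unadjusted p under 0.05, and the median change of the matrix genes was 0.05. The unknown depth limits what can be said of genes under 1 TPM.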
